A study of Mus musculus with 16 samples.

Results

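The splenic conventional dendritic cells with high surface ESAM, here called Esamhi as in the labels, were compared between mice labelled CKO, which the study describes as Etv6-deficient, and wild-type mice, labelled WT. They were the 2 Esamhi CKO and 2 Esamhi WT libraries, 4 of the 16 RNA sequencing libraries of the series, chosen by subset and genotype label alone. The other 12 libraries hold the same genotypes, with 2 libraries each, in Esamlo, Dec205 and pDC dendritic cells of the spleen. The table lists 24116 genes, and the 13317 autosomal genes with enough reads to be tested are the subject here. Neither the driver of the deletion, the deleted exons nor the strain, age or sex of the animals is stated in the labels. Nor do they say whether libraries came from separate animals, so each p-value below rests on how far libraries of a group differ, and this may be technical variation only.

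Type 2 conventional dendritic cells, or cDC2, carry SIRPα and present antigen mainly to CD4 T cells. In the spleen they fall into an ESAM-high kind, which often carries CD4, lies near the marginal zone and needs Notch2 signalling, and an ESAM-low kind with more monocyte-like transcripts. Etv6 is a member of the ETS family of transcription factors, which bind DNA around a GGAA core, and it acts mainly as a repressor in blood cells.

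The labelled cell type was first set against its defining markers. Levels are given as CPM, the share of a library's counts scaled to 1e6. Esam, an adhesion molecule, had 131 and 134 CPM in the CKO libraries, against 144 and 151 CPM in the WT libraries. Sirpa, the surface receptor shared by cDC2, had 1571 and 1515 CPM in CKO, against 1475 and 1331 CPM in WT. Both markers were thus abundant in all 4 libraries, and neither passed the test (adjusted p = 1 for each, edgeR quasi-likelihood F test with Benjamini-Hochberg adjustment). Cd4, the coreceptor, had 126 and 143 CPM in CKO, against 293 and 266 CPM in WT, and is taken up with the falls. Of the defining genes of other cell types, the pDC gene Siglech stayed at 0.746 to 1.52 CPM and the cDC1 gene Clec9a at 0.623 to 5.17 CPM in the 4 libraries. B cell transcripts were present in every library, with Cd79a at 66.7 and 35.3 CPM in CKO, against 28.9 and 32.7 CPM in WT.

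Etv6 itself, on chr6:134035700-134270158 (GRCm38, Entrez 14011), had 390 and 434 CPM in the CKO libraries, against 492 and 451 CPM in the WT libraries. Both CKO values lay below both WT values, but the difference was small (log2 fold change of -0.19, SE 0.10, adjusted p = 0.812, edgeR). The count covers the whole gene, so reads from exons that remain after a deletion are included and the genotype label was not tested by it. Sex and genotype cannot be told apart in these libraries. Xist, transcribed from the inactive X chromosome of females, had 355 and 324 CPM in CKO, against 1.28 and 0.156 CPM in WT, and the Y-linked Ddx3y had 0.610 and 0.901 CPM in CKO, against 220 and 219 CPM in WT. Autosomal genes alone are reported for this reason, though a sex difference in an autosomal gene would enter these comparisons too. The 4 libraries held 15250636 to 19578517 counts, and the same genes were quantified in libraries of 14434287 to 20709265 counts across the series.

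More autosomal genes were higher than lower in the CKO libraries. At an adjusted p under 0.05, 87 autosomal genes were higher and 23 lower in Esamhi CKO than in Esamhi WT, which is 0.653% and 0.173% of the 13317 tested (0.826% in either direction, edgeR). Of these, 57 of the higher and 10 of the lower genes changed at least 2-fold. In all 110 called genes both CKO libraries lay beyond both WT libraries. This is common with 2 libraries a group: among all tested autosomal genes both lay above in 22.4% and below in 21.9%. An unadjusted p under 0.05 was reached by 991 autosomal genes (edgeR). The median log2 fold change of all tested autosomal genes was 0. With only 2 libraries a genotype these counts depend on each library: leaving out CKO 1, CKO 2, WT 1 or WT 2 left 33, 35, 33 and 33 higher genes, and 1, 6, 7 and 6 lower genes. A fit to the 4 Esamhi libraries alone called 367 higher and 200 lower genes, and DESeq2 called 211 and 79.

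**Figure D1:**
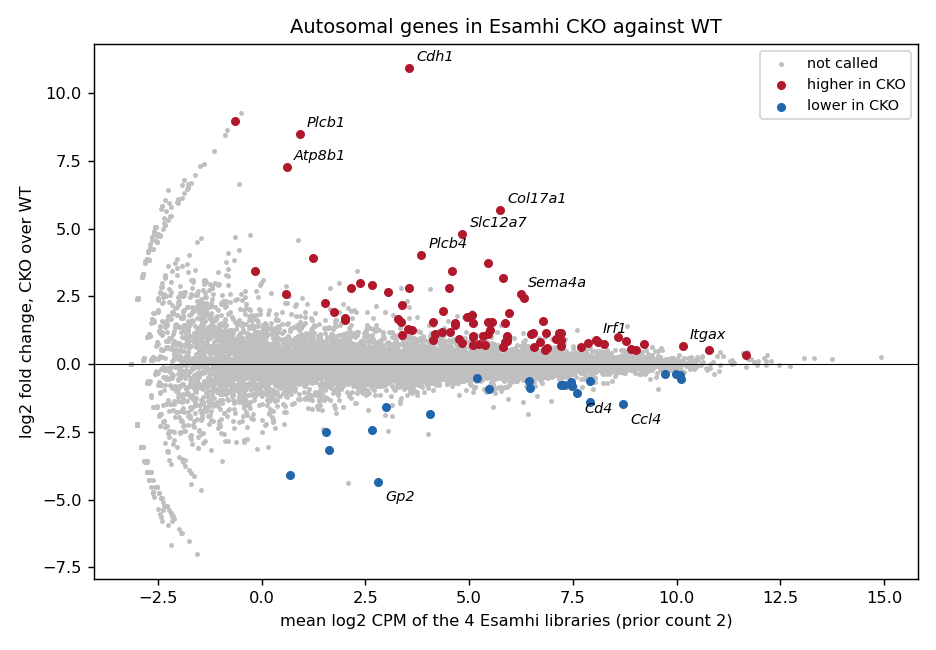
Log2 fold change of CKO over WT (vertical axis) against the mean log2 CPM of the 4 Esamhi libraries (horizontal axis) for the tested autosomal genes. The 87 called higher genes (red) reach a log2 fold change of 10.91 for Cdh1, whereas the 23 called lower genes (blue) end at -4.34 for Gp2, and uncalled genes (grey) widen at low levels.

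The largest rise was in Cdh1, E-cadherin, the calcium-dependent adhesion molecule of epithelial cells that Langerhans cells also carry. Cdh1 (chr8:106603350-106670247) had 527 and 510 CPM in the CKO libraries, against 0 and 0.519 CPM in the WT libraries. The gene was near or at 0 in both WT libraries and above 500 CPM in both CKO libraries, with a log2 fold change of 10.91 (SE 0.54, adjusted p = 4.77e-07, edgeR). The size of this change is not precise, because the WT libraries held 0 and 10 reads of Cdh1: it was 9.95 without WT 1 and 16.14 without WT 2, and the gene stayed called without any single Esamhi library. Col17a1, the transmembrane collagen of epithelial hemidesmosomes, had 370 and 391 CPM in CKO, against 6.76 and 8.20 CPM in WT. Both CKO libraries were far above both WT libraries (log2 fold change 5.67, SE 0.38, adjusted p = 7.65e-06, edgeR). Itgb4, whose integrin chain joins Col17a1 in hemidesmosomes, was low in absolute terms, with 44 and 72 reads in CKO and 0 and 0 reads in WT. Against a floor of 3 counts over the WT group this is at least 45.3-fold higher in CKO (adjusted p = 0.0377).

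The Col17a1 start region is shown because the gene gave the second largest rise above the level filter and because it holds many copies of the GGAA core that ETS factors bind, which was noticed after the sequence was seen. In the RefSeq promoter window on GRCm38.p6 (250 bases before to 50 after the start, minus strand, chr19:47691993-47692292), capitals mark the 9 GGAA cores on either strand, of which those on the other strand read TTCC.
Col17a1: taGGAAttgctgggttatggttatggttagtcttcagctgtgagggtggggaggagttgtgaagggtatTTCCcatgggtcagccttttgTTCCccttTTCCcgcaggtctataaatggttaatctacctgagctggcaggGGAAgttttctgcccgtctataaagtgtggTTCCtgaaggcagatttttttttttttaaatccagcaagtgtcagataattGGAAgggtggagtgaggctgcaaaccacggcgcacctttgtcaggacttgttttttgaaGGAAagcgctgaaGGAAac
A GGAA core occurs in 95.6% of the promoters of all tested autosomal genes, so its presence does not set Col17a1 apart. The median promoter holds 3 cores, and 9 or more occur in 1.89% of the 13285 promoter windows of these genes.

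A pair of neighbouring leukocyte integrin genes on chromosome 7 also rose. Itgax, which encodes the CD11c chain that marks dendritic cells, had 1389 and 1436 CPM in CKO, against 928 and 867 CPM in WT (log2 fold change 0.65, SE 0.13, adjusted p = 0.0345, edgeR). Its neighbour Itgad, encoding CD11d, had 171 and 174 CPM in CKO, against 65.7 and 89.3 CPM in WT (log2 fold change 1.16, SE 0.20, adjusted p = 0.0188). The groups did not overlap for either gene. Itgam, which encodes the CD11b chain of cDC2 and lies on the same chromosome, had 346 and 355 CPM in CKO, against 274 and 246 CPM in WT, and was not called (adjusted p = 0.907). Cox6a2, a muscle-type subunit of cytochrome c oxidase whose gene overlaps Itgad, had 9.29 and 7.38 CPM in CKO, against 0.479 and 0.623 CPM in WT (adjusted p = 0.00504). The library kit named in the labels does not keep strand information and no counting method is given, so Cox6a2 reads may belong to Itgad and the reverse. Of 36 tested genes in the list of integrins, cadherins and other adhesion molecules, the 5 named above (Cdh1, Col17a1, Itgb4, Itgax and Itgad) rose and 0 fell, with a list median of 0.10 against 0 for all genes. Beside this and each list below, 0.653% of all tested autosomal genes were called higher and 0.173% lower. The lists were chosen with earlier results of these data known, so such counts carry no test. Cadherin partners on the same list stayed near their WT level, with Ctnnb1, β-catenin, at 166 and 184 CPM in CKO, against 201 and 165 CPM in WT. Epcam, another epithelial adhesion gene, had 9.56 and 9.18 CPM in CKO, against 20.3 and 18.1 CPM in WT, and was not called (adjusted p = 0.878). Itgax and Itgb4 lost their call whichever single Esamhi library was left out (adjusted p up to 0.295 and 0.323), Itgad without WT 1, CKO 1 or CKO 2 (up to 0.275), and Cox6a2 without WT 1, WT 2 or CKO 1 (up to 0.108).

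The Itgax start region (plus strand, chr7:128129300-128129599) is shown for the AP-1 motif TGACTCA, marked in capitals, which here reads TGAGTCA on the plus strand.
Itgax: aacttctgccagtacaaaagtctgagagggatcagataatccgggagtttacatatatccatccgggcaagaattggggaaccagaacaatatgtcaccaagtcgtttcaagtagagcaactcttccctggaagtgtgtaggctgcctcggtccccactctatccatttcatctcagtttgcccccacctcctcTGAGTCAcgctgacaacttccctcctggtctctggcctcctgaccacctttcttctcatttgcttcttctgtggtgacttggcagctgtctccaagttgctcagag

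Genes of ion transport and phospholipid signalling came next. Slc12a7, a potassium-chloride cotransporter on chr13:73733052-73816754, had 158 and 149 CPM in CKO, against 7.24 and 3.74 CPM in WT (log2 fold change 4.80, SE 0.37, adjusted p = 1.99e-05, edgeR). Plcb4, a phospholipase C activated by G proteins, had 49.6 and 65.7 CPM in CKO, against 3.46 and 3.58 CPM in WT (log2 fold change 4.03, SE 0.18, adjusted p = 2.88e-07). Both were low in both WT libraries and high in both CKO libraries. The adjoining Plcb1, which encodes a related phospholipase and lies below the level filter, had 692 reads in CKO and 2 reads in WT, a ratio of 405 per unit depth (exact 95% interval 112 to 3350, counting error only). Atp8b1, a phospholipid flippase also below the filter, had 427 reads in CKO and 3 reads in WT, a ratio of 167 (interval 56.6 to 811). Plcb1 and Atp8b1 were named after their values were seen. Pik3r6, a regulatory subunit of the γ form of phosphoinositide 3-kinase, had 114 and 123 CPM in CKO, against 31.9 and 32.4 CPM in WT (log2 fold change 1.88, SE 0.36, adjusted p = 0.0335), but was not called when any single Esamhi library was left out (up to 0.358).

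Several enzymes of metabolism were raised. Hpgd, the dehydrogenase that inactivates prostaglandins, had 185 and 150 CPM in CKO, against 18.5 and 18.7 CPM in WT (log2 fold change 3.17, SE 0.35, adjusted p = 0.000887, edgeR). Adssl1, the muscle-type adenylosuccinate synthase of purine metabolism, had 42.0 and 38.8 CPM in CKO, against 10.3 and 10.6 CPM in WT (log2 fold change 1.95, adjusted p = 0.000764). Chst10, a sulfotransferase that makes the HNK-1 carbohydrate, had 187 and 185 CPM in CKO, against 38.1 and 30.5 CPM in WT (log2 fold change 2.44, adjusted p = 0.00585). In each of these 3 genes the libraries of a genotype lay close together and the genotypes far apart. Ppp1r3d, a glycogen-targeting subunit of protein phosphatase 1, had 22.9 and 18.2 CPM in CKO, against 2.88 and 3.58 CPM in WT (log2 fold change 2.66, adjusted p = 0.022). Fam217b, whose gene overlaps Ppp1r3d, had 36.7 and 25.1 CPM in CKO, against 4.53 and 4.20 CPM in WT (log2 fold change 2.82, adjusted p = 4.56e-05). Ttn, titin of the muscle sarcomere, had 178 and 147 CPM in CKO, against 15.1 and 9.18 CPM in WT (log2 fold change 3.74, SE 0.72, adjusted p = 0.0314), and Rnf180, a ubiquitin ligase, had 20.7 and 23.4 CPM in CKO, against 5.75 and 4.10 CPM in WT (log2 fold change 2.16, adjusted p = 0.00577). Hpgd, Adssl1 and Fam217b stayed called when any single Esamhi library was left out. Ttn, Ppp1r3d and Chst10 lost the call in all 4 such fits (adjusted p up to 0.336, 0.311 and 0.128), and Rnf180 lost it without WT 2 or CKO 2 (up to 0.119).

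**Figure D2:**
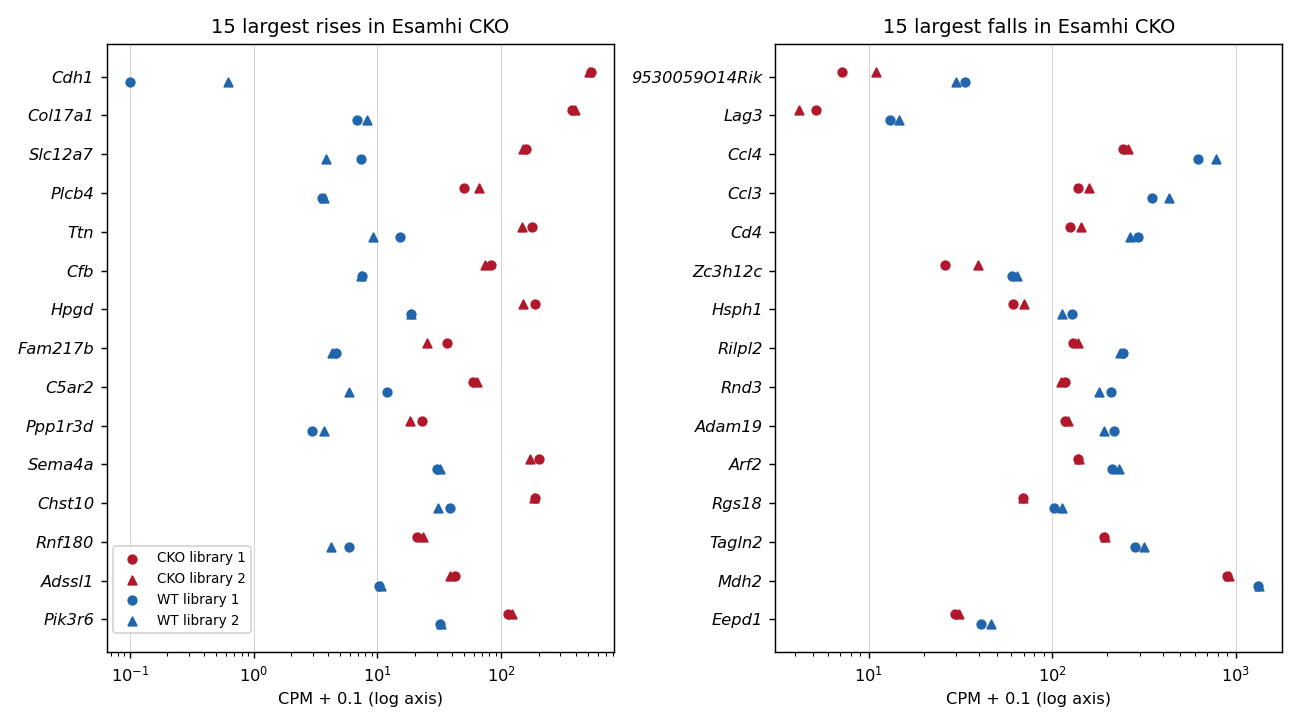
CPM plus 0.1 on a log axis in each Esamhi library for the 15 largest rises (left panel) and the 15 largest falls (right panel) among called genes above the level filter, with CKO libraries in red and WT libraries in blue. Every CKO point of a gene lies on the same side of both WT points, because only such genes were chosen. The rises run to 527 CPM in CKO against 0 CPM in WT for Cdh1, whereas the falls stay below 4-fold.

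Immune receptors and secreted factors were a further group. Sema4a, a semaphorin of dendritic cells that acts on T cells, had 201 and 170 CPM in CKO, against 30.4 and 32.0 CPM in WT (log2 fold change 2.57, SE 0.16, adjusted p = 6.95e-06, edgeR). Cfb, complement factor B of the alternative pathway, had 83.0 and 73.3 CPM in CKO, against 7.35 and 7.21 CPM in WT (log2 fold change 3.42, SE 0.56, adjusted p = 0.0117). C5ar2, the second receptor for the complement fragment C5a, had 59.5 and 63.1 CPM in CKO, against 11.8 and 5.81 CPM in WT (log2 fold change 2.80, SE 0.41, adjusted p = 0.0101). All 3 genes had CKO libraries well above WT libraries. With Itgax, which is on the list as part of complement receptor 4, Cfb and C5ar2 made 3 rises and 0 falls among 21 tested Fc and complement genes, at a list median of 0.23. C5ar1, the main C5a receptor, had 14.4 and 14.1 CPM in CKO, against 4.32 and 2.18 CPM in WT, and did not pass (adjusted p = 0.455). Csf2rb2, a mouse receptor chain for interleukin-3, had 224 and 218 CPM in CKO, against 105 and 96.2 CPM in WT (log2 fold change 1.14, SE 0.09, adjusted p = 3.41e-05). Csf2rb2 has a close copy in Csf2rb, so counts could be split between them. Csf2rb had 456 and 471 CPM in CKO, against 393 and 356 CPM in WT, and was not called (adjusted p = 0.392). Csf2rb2 was the 1 called gene among 26 growth factor and cytokine receptors. Of these 26, 21 had a log2 fold change above 0, while 49.6% of all tested autosomal genes were below 0. Cfb lost its call whichever Esamhi library was left out (adjusted p up to 0.195), with DESeq2 and without the low-count filter. C5ar2 lost it without WT 2, CKO 1 or CKO 2 (up to 0.119), and its log2 fold change ran between 2.38 without WT 2 and 3.40 without WT 1, whereas Sema4a and Csf2rb2 kept theirs.

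Of the 4 Sema4a start windows in the RefSeq table, the one furthest downstream (minus strand, chr3:88455712-88456011) is shown. It belongs to an alternative start inside the gene, 5421 bases downstream of the first start window (chr3:88461133-88461432), and holds the longer ETS motif CGGAAGT, marked in capitals, which reads ACTTCCG here since the match is on the opposite strand.
Sema4a: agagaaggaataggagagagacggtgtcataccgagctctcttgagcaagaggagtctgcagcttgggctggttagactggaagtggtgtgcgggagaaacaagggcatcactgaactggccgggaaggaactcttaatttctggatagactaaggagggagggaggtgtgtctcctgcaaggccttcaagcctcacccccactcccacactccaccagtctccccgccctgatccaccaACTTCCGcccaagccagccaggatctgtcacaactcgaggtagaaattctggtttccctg

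A few transcription factor genes and interferon targets were among the smaller rises, while most tested members of their lists were not called. Irf1, an interferon-induced activator, had 377 and 339 CPM in CKO, against 188 and 202 CPM in WT (log2 fold change 0.88, SE 0.08, adjusted p = 0.000171, edgeR). Irf8, the factor needed for cDC1 and expressed at low level in cDC2, had 152 and 126 CPM in CKO, against 83.2 and 76.1 CPM in WT (log2 fold change 0.80, SE 0.10, adjusted p = 0.00149). The replicate libraries of these genes differed much less than the genotypes, and both kept their call without any single Esamhi library. Nfil3, a repressor upstream of cDC1 development, had 305 and 311 CPM in CKO, against 160 and 200 CPM in WT (log2 fold change 0.78, SE 0.12, adjusted p = 0.0101). Irf1, Irf8 and Nfil3 were the 3 rises, with 0 falls, among 36 tested transcription factors of dendritic cells, whose median was -0.01. Irf4, the factor that cDC2 depend on, had 206 and 271 CPM in CKO, against 421 and 348 CPM in WT, and did not pass the test (adjusted p = 0.636, edgeR). Its CKO libraries were both below both WT libraries, as in 21.9% of all tested autosomal genes. Of the 17 autosomal ETS family genes tested, 0 were called by edgeR or DESeq2 and 0 had an unadjusted p under 0.05. Nfil3 was no longer called without WT 1, CKO 1 or CKO 2 (adjusted p up to 0.155).

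Among interferon targets, Cxcl10, a chemokine for CXCR3-bearing T cells, had 39.2 and 30.8 CPM in CKO, against 15 and 16 CPM in WT (log2 fold change 1.17, SE 0.24, adjusted p = 0.0401, edgeR). Ifi47, an immunity-related GTPase, had 88.7 and 74.8 CPM in CKO, against 46.5 and 43.2 CPM in WT (log2 fold change 0.87, SE 0.15, adjusted p = 0.0155). Iigp1, another such GTPase, had 7.46 and 5.69 CPM in CKO, against 2.18 and 0.571 CPM in WT (adjusted p = 0.0476). The Iigp1 log2 fold change of 2.25 was 1.58 without WT 2 and 3.51 without WT 1. These 2 GTPases were the called members of 18 interferon-γ-induced GTPases, of which 15 had a log2 fold change above 0, with a median of 0.49. Of all tested autosomal genes, 49.6% were below 0. The near-identical copies in this family, such as Tgtp1 and Tgtp2, make single values uncertain. In the type I interferon list, 3 genes rose and 0 fell among 42 tested, with Ifi47 and Mndal among the rises, at a median of -0.06. Classical members such as Ifit1, which binds viral RNA caps, had 36.4 and 29.5 CPM in CKO, against 39.2 and 54.3 CPM in WT (adjusted p = 1). H2-K1, a classical MHC class I heavy chain from a multigene family, had 3749 and 3622 CPM in CKO, against 2741 and 3102 CPM in WT (log2 fold change 0.34, adjusted p = 0.0494). H2-K1 was the 1 called gene among 22 of MHC class I presentation, while 0 of 17 class II genes were called (8 at an unadjusted p under 0.05 and 2 with DESeq2). Cxcl10, Mndal and H2-K1 lost the call whichever Esamhi library was left out (adjusted p up to 0.392, 0.424 and 0.528), Ifi47 without WT 1, WT 2 or CKO 1 (up to 0.190), and Iigp1 without WT 2, CKO 1 or CKO 2 (up to 0.322). Cxcl10, Iigp1, Mndal and H2-K1 were also not called when counts were scaled by library size alone.

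The Cxcl10 start region (minus strand, chr5:92348840-92349139) is shown for its single match to the interferon-stimulated response element form, 2 GAAA blocks separated by any 2 bases, in capitals.
Cxcl10: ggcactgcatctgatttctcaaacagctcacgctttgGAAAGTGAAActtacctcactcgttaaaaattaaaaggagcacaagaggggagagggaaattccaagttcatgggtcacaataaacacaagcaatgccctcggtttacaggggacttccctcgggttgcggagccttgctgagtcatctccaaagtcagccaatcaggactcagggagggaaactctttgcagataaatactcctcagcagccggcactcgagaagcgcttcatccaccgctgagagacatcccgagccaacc

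Further called genes came from the monocyte-like, redox, lysosomal and lectin lists. Plac8, which is high in monocyte-like cells and pDCs, had 575 and 514 CPM in CKO, against 241 and 300 CPM in WT (log2 fold change 1.01, SE 0.13, adjusted p = 0.00149, edgeR). Lyz2, lysozyme of myeloid cells, had 765 and 706 CPM in CKO, against 286 and 263 CPM in WT, and missed the threshold (adjusted p = 0.0616). Plac8 was the 1 call among 24 genes of ESAM-low and monocyte-like cDC2, whose median was 0.04. Nfe2l2, which encodes the oxidative stress factor NRF2, had 341 and 388 CPM in CKO, against 188 and 223 CPM in WT (log2 fold change 0.83, adjusted p = 0.0266). Lamp1, a glycoprotein of the lysosomal membrane, had 650 and 599 CPM in CKO, against 402 and 478 CPM in WT (log2 fold change 0.51, adjusted p = 0.0179). Ctsc, the protease cathepsin C, went the other way, with 907 and 998 CPM in CKO, against 1284 and 1230 CPM in WT (log2 fold change -0.40, adjusted p = 0.0254). Nfe2l2 was the 1 call among 22 glutathione and redox genes, and Lamp1 and Ctsc were the 1 rise and 1 fall among 27 lysosomal genes. Clec2i, a ligand of an NK cell receptor family, had 43.9 and 42.9 CPM in CKO, against 24.4 and 28.6 CPM in WT (log2 fold change 0.71, adjusted p = 0.0377), the 1 call among 26 C-type lectin genes. Nfe2l2, Ctsc and Clec2i were not called once any Esamhi library was left out (adjusted p up to 0.358, 0.281 and 0.437), nor was Lamp1 without WT 1, CKO 1 or CKO 2 (up to 0.218), while Plac8 remained called in all 4 such fits.

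The falls were smaller and included secreted chemokines. Ccl4, a chemokine also called MIP-1β, had 243 and 258 CPM in CKO, against 625 and 781 CPM in WT (log2 fold change -1.49, SE 0.17, adjusted p = 0.000672, edgeR). Its neighbour Ccl3, the related chemokine MIP-1α, had 138 and 159 CPM in CKO, against 349 and 435 CPM in WT (log2 fold change -1.40, SE 0.20, adjusted p = 0.00351). The CKO libraries were below both WT libraries for both genes, whose annotated spans overlap. Tnf, the inflammatory cytokine, had 77.8 and 80.1 CPM in CKO, against 217 and 188 CPM in WT (adjusted p = 0.114). Il12b, the shared chain of interleukin-12 and interleukin-23, had 40.8 and 37.8 CPM in CKO, against 79.0 and 112 CPM in WT (adjusted p = 0.0958). Neither Tnf nor Il12b was called. For each, both CKO libraries lay below both WT libraries, as in 21.9% of all tested autosomal genes. With Cxcl10 as the 1 rise and Ccl3 and Ccl4 as the 2 falls, 3 of 31 tested chemokine and cytokine genes were called, and the list median was 0.04. Ccl3 was not called without WT 2 or CKO 1 (adjusted p up to 0.0854), while Ccl4 was called in all 4 such fits.

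Cd4 and its neighbour Lag3, which encodes an inhibitory receptor that binds MHC class II, both fell. Cd4 (chr6:124864693-124888247), with the values given above, was 2.08-fold lower in CKO (log2 fold change -1.06, SE 0.20, adjusted p = 0.0314, edgeR). Lag3 had 5.09 and 4.06 CPM in CKO, against 13.1 and 14.6 CPM in WT (log2 fold change -1.60, SE 0.32, adjusted p = 0.0377). Cd4 was the 1 called gene among 22 ESAM-high and Notch pathway genes, whose median was 0.02. Notch2, the receptor this subset depends on, had 290 and 342 CPM in CKO, against 370 and 290 CPM in WT, and Dtx1, a Notch target, had 464 and 498 CPM in CKO, against 629 and 622 CPM in WT (adjusted p = 1 for both). Cd8a and Sept3, from the cDC1 list, fell at low levels: Cd8a had 0.882 and 1.58 CPM in CKO, against 10.1 and 4.15 CPM in WT (adjusted p = 0.0314), and Sept3 had 2.58 and 2.76 CPM in CKO, against 12.5 and 16.8 CPM in WT (adjusted p = 0.0282). Irf8 and Nfil3 were the 2 rises on the same list of 28 genes. In bulk libraries such as these, fewer cells carrying a transcript and less of it per cell cannot be told apart. Cd4, Lag3 and Sept3 lost the call whichever Esamhi library was left out (adjusted p up to 0.331, 0.365 and 0.276), and Cd8a without WT 1, CKO 1 or CKO 2 (up to 0.321). The Cd8a log2 fold change of -2.49 was -1.72 without WT 1.

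Among the 15 largest falls above the level filter, the remaining ones ranged from 3.54-fold for the RIKEN transcript 9530059O14Rik to 1.44-fold for Eepd1. Hsph1, a large heat shock chaperone, had 61.0 and 69.8 CPM in CKO, against 128 and 112 CPM in WT (log2 fold change -0.88, adjusted p = 0.0377, edgeR), and Hsp90ab1, a constitutive HSP90, had 780 and 708 CPM in CKO, against 942 and 960 CPM in WT (log2 fold change -0.35, adjusted p = 0.0419). These were the 2 falls, with 0 rises, among 31 immediate-early and heat shock genes. Of these 31, 20 had a log2 fold change below 0, beside 49.6% of all tested autosomal genes. Rilpl2, a regulator of vesicle transport, had 130 and 139 CPM in CKO, against 242 and 233 CPM in WT (log2 fold change -0.82, adjusted p = 0.00504). Mdh2, the mitochondrial malate dehydrogenase, had 896 and 920 CPM in CKO, against 1317 and 1345 CPM in WT (log2 fold change -0.55, adjusted p = 0.00466). Cytoskeletal and signalling genes were also among the falls: Rnd3 by 0.77, the metalloprotease gene Adam19 by 0.77, the small GTPase gene Arf2 by 0.68, and both the G protein regulator gene Rgs18 and the actin-binding gene Tagln2 by 0.63 on the log2 scale, as well as the ribonuclease gene Zc3h12c by 0.93. Hsph1, Hsp90ab1, Rnd3, Adam19, Arf2 and Eepd1 lost the call whichever Esamhi library was left out (adjusted p up to 0.371, 0.401, 0.405, 0.358, 0.278 and 0.384). Rilpl2 lost it without WT 1, CKO 1 or CKO 2 (up to 0.0986), Rgs18, Tagln2 and Mdh2 without WT 2, CKO 1 or CKO 2 (up to 0.0610, 0.0588 and 0.0842), and Zc3h12c and 9530059O14Rik without WT 1, WT 2 or CKO 1 (up to 0.371 and 0.146). Below the level filter, and named after their values were seen, Gp2, a glycoprotein of antigen-sampling epithelial cells, had 1.02 and 2.03 CPM in CKO, against 29.0 and 33.6 CPM in WT (adjusted p = 0.00351), and Dcstamp, needed for fusion of osteoclasts, had 0.136 and 0.563 CPM in CKO, against 6.50 and 5.92 CPM in WT (adjusted p = 0.0476).

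**Figure D3:**
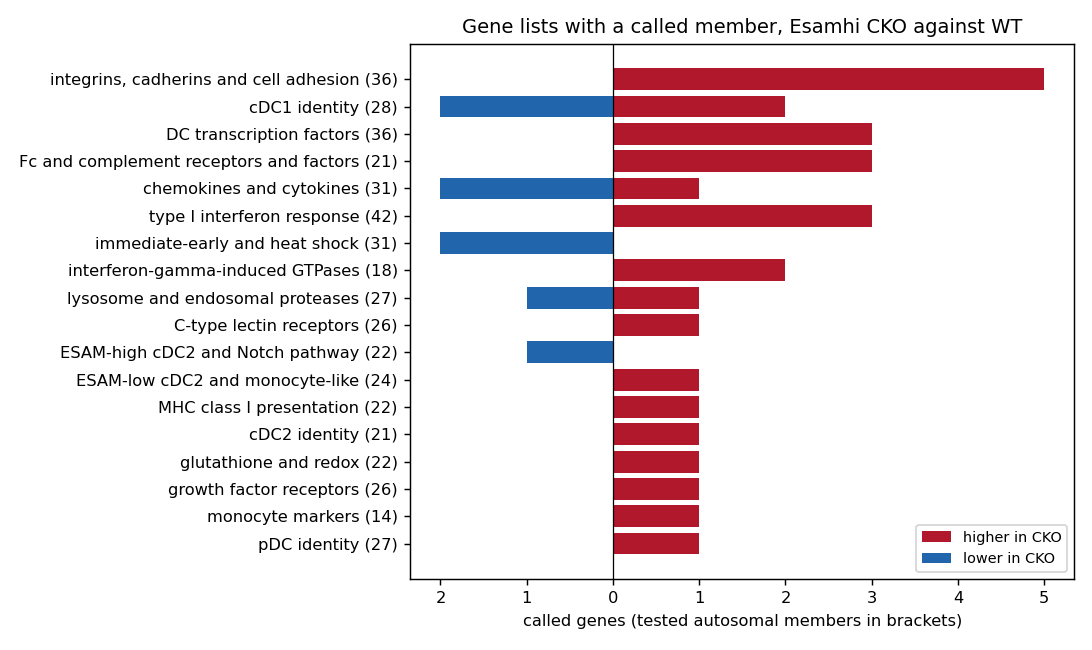
Number of called genes, higher in CKO to the right (red) and lower in CKO to the left (blue), in each of the 18 gene lists with at least 1 called member, with the number of tested autosomal members in brackets. The adhesion list has the most rises, 5 of 36, and the chemokine, cDC1 and heat shock lists have 2 falls each. Of all tested autosomal genes, 0.653% were called higher and 0.173% lower. The lists were chosen with earlier results of these data known.

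In some lists most members had log2 fold changes of 1 sign, with 0 called. Of 40 cell cycle genes, 38 had a log2 fold change below 0, beside 49.6% of all tested autosomal genes, and the median was -0.42. In 30 of them both CKO libraries lay below both WT libraries, beside 21.9% of all tested genes, yet 0 were called by the 16-library edgeR fit and 14 had an unadjusted p under 0.05. Mcm5, a subunit of the replicative helicase, had 97.4 and 84.9 CPM in CKO, against 129 and 128 CPM in WT (adjusted p = 0.0967, edgeR). Ccna2, cyclin A2, had 77.6 and 73.9 CPM in CKO, against 129 and 110 CPM in WT (adjusted p = 0.425), and Mki67, the proliferation marker Ki-67, had 159 and 128 CPM in CKO, against 211 and 182 CPM in WT (adjusted p = 0.939). Cdkn1a, the cell cycle inhibitor p21, was on the other side, with 228 and 206 CPM in CKO, against 100 and 131 CPM in WT (adjusted p = 0.245). The number of lower calls on this list depended on the fit, with 19 in the fit to the 4 Esamhi libraries and 2 with DESeq2. All 32 tested ribosomal protein genes had a log2 fold change below 0, at a median of -0.14, and 26 of 31 oxidative phosphorylation genes did, with 0 called in either by edgeR or DESeq2, and 1 and 0 at an unadjusted p under 0.05. The ribosomal and cell cycle directions were the same under each scaling tried. Single calls on other lists were genes named above: Itgax among 21 cDC2 genes, Cox6a2 among 27 pDC genes and Plac8 among 14 monocyte genes. The lists for MHC class II, costimulation, pattern recognition, chemokine receptors, NF-kB, apoptosis, glycolysis and cholesterol also had 0 called genes with edgeR. At an unadjusted p under 0.05 these lists held 8, 7, 4, 1, 3, 6, 2 and 0 genes in that order, and DESeq2 called 2, 4, 1, 0, 0, 3, 0 and 0.

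**Figure D4:**
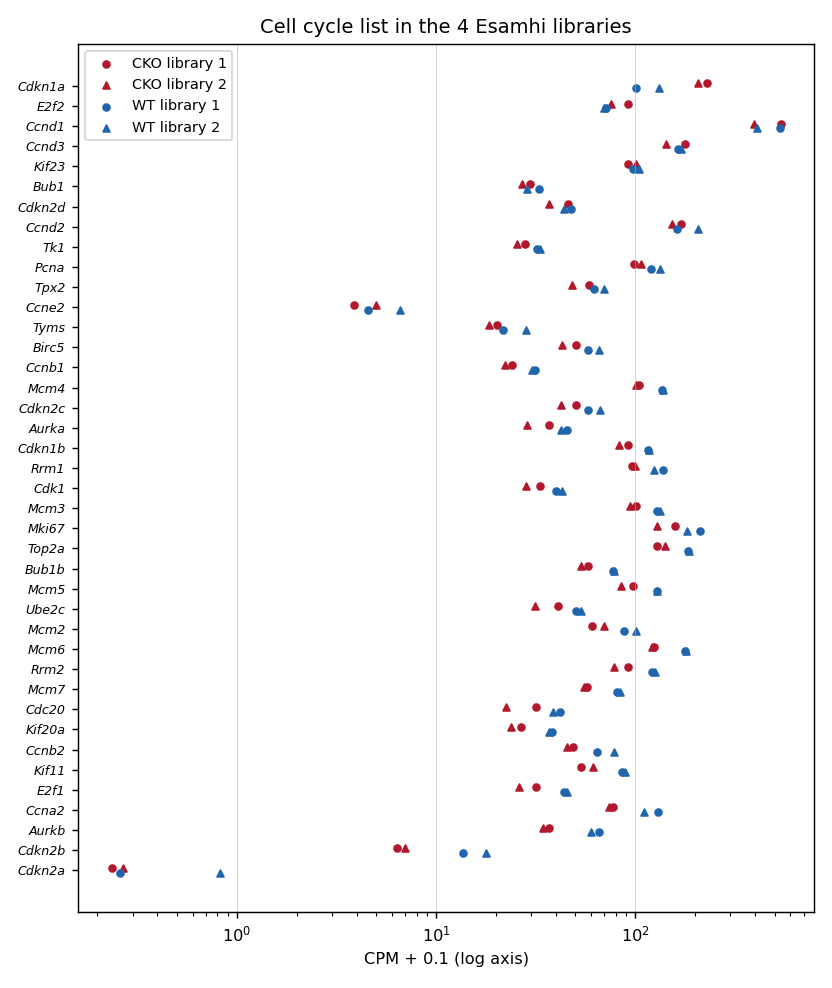
CPM plus 0.1 on a log axis of the 40 cell cycle genes in the 4 Esamhi libraries, ordered by log2 fold change, with CKO libraries in red and WT libraries in blue. In 30 genes both CKO points lie left of both WT points, and in 2 genes, Cdkn1a and E2f2, they lie to the right.

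Transcripts that mark other blood cells were present in all 4 libraries, and 0 genes of the B cell, plasma cell, T cell, NK cell, macrophage, neutrophil and erythroid lists were called. The summed CPM of the 11 neutrophil genes was 180 and 199 in CKO, against 113 and 87.5 in WT. Much of this came from Mmp9 and Csf3r, which are also on the ESAM-high and ESAM-low lists. Mmp9 had 69.3 and 78.9 CPM in CKO, against 89.1 and 54.7 CPM in WT, and Csf3r 63.5 and 69.1 CPM, against 13.3 and 21.8 CPM. Of the 11 genes, 10 had a log2 fold change above 0, while 49.6% of all tested autosomal genes were below 0. The 16-library edgeR fit called 0, with 6 at an unadjusted p under 0.05, the fit to the 4 Esamhi libraries 7 and DESeq2 3. S100a8, the abundant calprotectin subunit, had 8.68 and 9.46 CPM in CKO, against 2.02 and 2.54 CPM in WT (adjusted p = 0.0576, edgeR). The 7 erythroid and platelet genes summed to 113 and 98.1 CPM in CKO, against 46.7 and 56.8 CPM in WT. The 14 B cell genes summed to 561 and 427 CPM in CKO, against 520 and 522 CPM in WT, so those groups overlapped. Within this list Cd22, an inhibitory lectin of B cells, was the most abundant gene, with 180 and 136 CPM in CKO, against 291 and 276 CPM in WT (adjusted p = 0.665). The 9 plasma cell genes summed to 349 and 369 CPM in CKO, against 437 and 368 CPM in WT, the 15 T cell genes to 252 and 267 CPM in CKO, against 242 and 224 CPM in WT, and the 10 NK cell genes to 105 and 120 CPM in CKO, against 135 and 149 CPM in WT. These sums were of the same order as Esam and Cd4 in the same libraries, but few genes made up most of each. Xbp1 and Jchain did so for plasma cells, Tcf7 for T cells and Klrd1 for NK cells. Tcf7 had 199 and 212 CPM in CKO, against 170 and 166 CPM in WT, and Klrd1 78.3 and 94.9 CPM, against 109 and 132 CPM. The T cell gene Cd3e had 4.41 and 4.28 CPM in CKO, against 5.38 and 1.71 CPM in WT. The NK cell gene Ncr1 had 0.475 and 0.169 CPM, against 0.373 and 0.571 CPM. The 15 macrophage genes summed to 980 and 872 CPM in CKO, against 778 and 1111 CPM in WT. In 5 of them, Slc40a1, Axl, Vcam1, Mertk and Cd163, both CKO libraries lay above both WT libraries, and in 1, Treml4, below (22.4% and 21.9% of all tested genes). Slc40a1, the iron exporter of red pulp macrophages, had 13.7 and 12.5 CPM in CKO, against 5.81 and 5.71 CPM in WT (adjusted p = 0.875). Other macrophage genes varied between replicates: C1qb, a complement component of tissue macrophages, had 74.0 and 22.8 CPM in CKO, against 30.9 and 163 CPM in WT. The part of such cells in the genes described above was not tested.

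The most similar population is the other cDC2 subset, Esamlo. There, 68 autosomal genes were called in CKO against WT (0.511% of the tested genes), and 47 genes were called in both subsets, which is 42.7% of the Esamhi calls and 69.1% of the Esamlo calls. All 47 had the same direction in both. The 87 genes higher in Esamhi had a median log2 fold change of 1.18 in Esamhi and 0.884 in Esamlo, and the 23 lower genes had -0.878 in Esamhi and -0.621 in Esamlo. The Esamlo median of all tested autosomal genes was 0.00762. Because the genes were selected by their Esamhi call, smaller Esamlo medians could arise with equal effects, and these medians measure no difference between subsets. Rassf1 was the 1 called gene of Esamhi with the opposite sign in Esamlo (log2 fold change 0.63 and -0.05). In the test of the difference between the subsets, 0 autosomal genes passed (0%, edgeR), 329 had an unadjusted p under 0.05, and DESeq2 called 8. Sema4a was nearest the threshold: its log2 fold change was larger by 1.44 in Esamhi than in Esamlo (adjusted p = 0.315), and it had 207 and 199 CPM in Esamlo CKO, against 110 and 75.7 CPM in Esamlo WT. Its WT level was thus lower in Esamhi than in Esamlo, while the CKO levels were alike. The Sema4a difference passed with DESeq2 (adjusted p = 1.36e-05) and in edgeR without the low-count filter (adjusted p = 0.0272). In edgeR it did not pass in the fit to the 8 cDC2 libraries (adjusted p = 0.0522) or under RLE scaling (adjusted p = 0.315). Its size was 1.15 without Esamlo WT 1 and 1.68 without Esamlo WT 2.

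In the Dec205 subset 892 autosomal genes were called in CKO against WT (6.70%), and in pDC 242 (1.82%). Against Dec205, the difference in genotype effect passed for 256 autosomal genes (1.92%), including 36 of the 110 genes called in Esamhi. Cdh1 stood at 2.15 and 2.08 CPM in Dec205 CKO, against 1.06 and 0 CPM in Dec205 WT, so the rise of Esamhi was larger by 8.85 on the log2 scale (adjusted p = 0.00786, edgeR). In pDC, Cdh1 was expressed in both genotypes, at 276 and 235 CPM in CKO and 280 and 275 CPM in WT. Col17a1 was also called in Esamlo, Dec205 and pDC, at log2 fold changes of 7.14, 5.01 and 1.54. Ccl4, lower in Esamhi CKO, had 573 and 736 CPM in Dec205 CKO, against 518 and 407 CPM in Dec205 WT, a difference in effect of -1.99 (adjusted p = 0.000819). Irf1 had 406 and 400 CPM in Dec205 CKO, against 502 and 548 CPM in Dec205 WT, and its effect in Esamhi was larger by 1.26 (adjusted p = 0.000384). The direction of the Irf1 difference was thus opposite in the 2 subsets. In all 4 subsets 10 autosomal genes were called, among them Col17a1, Itgax, Plcb4, Chst10 and Clec2i. Clec2i was called lower in Dec205 CKO (log2 fold change -1.20, adjusted p = 0.000286, edgeR) and higher in CKO of the other 3 subsets. A further 38 genes were called in Esamhi alone, for which no difference was thereby shown.

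**Figure D5:**
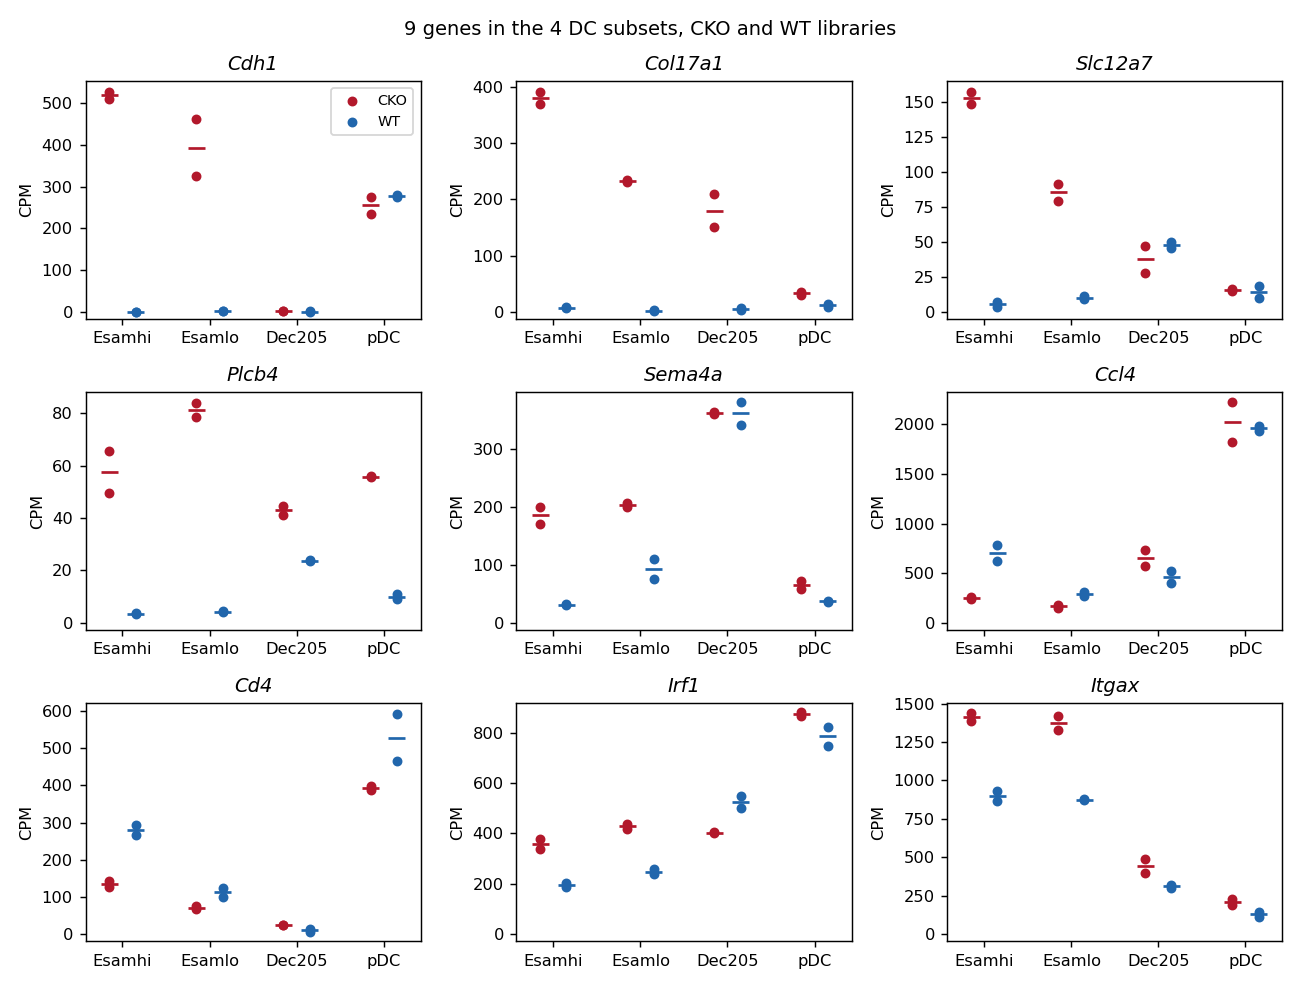
CPM of 9 genes in the 4 dendritic cell subsets, with CKO libraries (red) left of WT libraries (blue) and a bar at each mean of 2 libraries. Cdh1 is high in Esamhi CKO (527 and 510 CPM) and Esamlo CKO and near 0 in their WT, low in both Dec205 genotypes and high in both pDC genotypes.

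The called genes were placed on the genome by Entrez identifier and searched for adjacency and for promoter motifs. Of the called genes, 15 formed 8 pairs that overlapped or were next to each other among the tested genes, and both members of every pair moved the same way: Plcb1 and Plcb4, Ppp1r3d and Fam217b, Cd4 and Lag3, Dhx34 and C5ar2, Ceacam1 and Ceacam2, Itgax and Itgad, Itgad and Cox6a2, and Ccl3 and Ccl4. Plcb1 and Plcb4 are 183344 bases apart, while the Ppp1r3d and Fam217b genes overlap by 760 bases, Ccl3 and Ccl4 by 755 and Itgad and Cox6a2 by 70, so reads of overlapping genes could be counted for either. Promoter windows were matched for 67 of the 87 higher genes, 16 of the 23 lower genes and 10525 of all 13317 tested. The ETS motif CGGAAGT was in 6.38% of promoters of higher genes and 13% of lower genes, beside 12.4% of all promoters. The interferon-stimulated form was in 6.38% and 0% of these promoters and in 3.30% of all, with matches in Glul, Mndal, Cxcl10, Lamp1 and Aoah among the higher genes. The AP-1 motif TGACTCA was in 6.38% and 4.35%, beside 3.81% of all. These shares count start windows, of which a gene can have several that overlap. CGGAAGT was in 6 of 94 windows of higher genes and 3 of 23 windows of lower genes. The same site was counted in overlapping windows of Dhx34 among the higher genes and of Hsph1 among the lower. The other matches were in Sema4a, Armc7, Aoah and Golm1 (higher) and Mdh2 (lower). Both strands were searched, each CGGAAGT match also contains a GGAA core, and no match says only that these letters are not in this window.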

How the data were processed

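RNA of sorted spleen dendritic cells had been sequenced with SMART-seq v4 libraries, per the labels' protocols. The authors deposited 1 table of raw counts per gene with no normalization. Per the submitters' processing notes, reads were handled with bcl2fastq, Trimmomatic 0.36 and Bowtie2 2.2.9 on mm10. For the counting tool and the gene models, the entry is: not given in the sources used here. Libraries held 14434287 to 20709265 counts, and 3 counts correspond to 0.143 to 0.228 CPM.

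The comparisons were made in R 4.3.3 with edgeR 4.0.16 on all 16 libraries and 8 groups: default filtering by expression, TMM scaling, robust quasi-likelihood F tests, two-sided, and Benjamini-Hochberg adjustment over 13790 tested genes, called at an adjusted p under 0.05. The 13317 autosomal rows were then counted. CPM use TMM-scaled library sizes, and log2 CPM a prior count of 2. A SE was derived from each F statistic. The difference between subsets was a contrast in the same fit. The pipeline was tested on simulated data. Replicates differed by more than counting noise, at a chi-square per degree of freedom of 11.6 in CKO and 12.8 in WT, so no library was counted as a duplicate.

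Genes named are the 15 largest rises and 15 largest falls among called autosomal genes whose mean log2 CPM reached 3, with no overlap between genotypes, every called member of 38 gene lists, Etv6 and the markers. Others are said to be chosen after their values were seen or illustrate a list. The lists and members were chosen with earlier results of these data known, so list counts carry no test. Some items are not reported here. The GGAA search was added after the data were seen. Positions and promoters come from RefSeq on GRCm38.p6, matched by Entrez identifier. Alternatives were other scalings and filters, fits to fewer libraries, a replicate block, a 1.5-fold threshold (glmTreat) and DESeq2 1.42.0.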

Additional observations from a re-analysis of the deposited data

Results flagged for a closer look

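For 20 of the genes named above, out of the 256 autosomal genes that passed, the genotype effect differed between Esamhi and Dec205 in a test of the difference itself (edgeR, adjusted p under 0.05 over all tested genes). Values are the log2 fold change of CKO over WT in Esamhi minus that in Dec205, each from 2 libraries a group. The signed difference was positive for 10 genes: 8.85 for Cdh1, 5.16 for Slc12a7, 3.18 for Plcb4, 2.57 for Sema4a, 2.13 for Rnf180, 1.99 for Esam, 1.92 for Clec2i, 1.26 for Irf1, 0.98 for Lamp1 and 0.63 for Irf8. Esam had 131 and 134 CPM in Esamhi CKO, against 144 and 151 CPM in Esamhi WT, and its log2 fold change in Dec205 was -2.14 (adjusted p = 4.43e-05). Clec2i was called higher in Esamhi CKO (log2 fold change 0.71) and lower in Dec205 CKO (-1.20). The difference was negative for the other 10 genes: -4.99 for Ppp1r3d, -2.65 for Fam217b, -2.56 for Sept3, -2.39 for Cd4, -2.12 for Ccl3, -1.99 for Ccl4, -1.61 for Plac8, -1.22 for Ifi47, -0.99 for Ctsc and -0.96 for Rgs18. Ppp1r3d, Fam217b, Plac8 and Ifi47 rose in both subsets, and more in Dec205. Cd4, called lower in Esamhi, was called higher in Dec205 (log2 fold change 1.33, adjusted p = 0.00489).

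In 3 further cases both CKO libraries lay above both WT libraries in Esamhi and below them in another subset, and the difference did not pass. H2-K1, higher in Esamhi CKO, was almost level in Dec205, with 3689 and 3680 CPM in CKO, against 3690 and 3701 CPM in WT. Its log2 fold change there was -0.0040 (adjusted p of the difference 0.135, edgeR). Sirpa, with 0.14 in Esamhi, had -0.054 in Esamlo and -1.19 in Dec205, where the adjusted p of the differences was 0.9999 and 0.1002. Sirpa was not called in Esamhi or Esamlo, and was called lower in Dec205 CKO (adjusted p = 0.0183, edgeR).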

How the results depend on the processing

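The 87 higher and 23 lower genes came to 80 to 100 and 22 to 32 under RLE scaling, scaling by library size, no filter on low counts, a filter of 1 CPM in 2 libraries, the replicate block and autosomal genes alone. The fit to the compared libraries alone gave 367 higher and 200 lower genes, DESeq2 gave 211 and 79, a test against a 1.5-fold change gave 24 and 4, and leaving out 1 Esamhi library gave 33 to 35 and 1 to 7. The cause of these differences was not tested. Of the 110 called genes, 109 were shared with DESeq2 (all but Cfb), 109 with the fit to the 4 libraries, and 17 were called under every setting, among them Cdh1, Col17a1, Slc12a7, Plcb4, Hpgd, Sema4a, Fam217b, Adssl1, Csf2rb2 and Ccl4. No named gene reversed. The genes differing between Esamhi and Esamlo, 0 in number, became 1 without the low-count filter (Sema4a), 3 in the fit to the 8 cDC2 libraries (Hpgd, Lyz2 and Tnf) and 8 with DESeq2, and leaving out 1 library gave 0 to 1. Etv6 ranged from -0.27 to -0.12 over all settings and never passed. With the replicate number as a block, 94 genes were higher and 30 lower, of which 103 were among the 110, and Cxcl10 and Eepd1 were the named genes not called. Same-numbered Esamhi CKO and WT libraries deviated with a correlation of -0.069 across genes, and the labels do not say that a number marks a shared animal or day, so the numbers were not taken as pairs. Only 2 libraries a genotype limit these calls, and genes at a few CPM rest on few reads.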

Other observations

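Among called genes outside the naming rule, chosen here after their values were seen, several encode enzymes and regulators of other processes. Hpse, heparanase, which cuts heparan sulfate, had 51.3 and 61.2 CPM in CKO, against 15.7 and 18.2 CPM in WT (log2 fold change 1.73, adjusted p = 1.8e-05, edgeR), and stayed called under every setting. Procr, the endothelial protein C receptor, had 69.4 and 69.6 CPM in CKO, against 31.6 and 26.9 CPM in WT (log2 fold change 1.25, adjusted p = 0.00124). Pros1, protein S, which serves the same anticoagulant pathway and is a ligand of TAM receptors, had 16.8 and 18.8 CPM in CKO, against 4.16 and 7.89 CPM in WT (log2 fold change 1.56, adjusted p = 0.0351).

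Rxra, a retinoid X receptor, had 28.8 and 30.1 CPM in CKO, against 9.75 and 10.5 CPM in WT (log2 fold change 1.54, adjusted p = 0.0179, edgeR). Mxd1, a partner of MAX that opposes MYC, had 522 and 674 CPM in CKO, against 318 and 341 CPM in WT (log2 fold change 0.86, adjusted p = 0.00783). Bhlhe40, a repressor abundant in these cells, had 2128 and 2072 CPM in CKO, against 1483 and 1454 CPM in WT (log2 fold change 0.52, adjusted p = 0.0235). Glul, glutamine synthetase, had 46.2 and 49.0 CPM in CKO, against 25.0 and 23.2 CPM in WT (log2 fold change 0.98, adjusted p = 0.0188), and Gsn, the actin-severing protein gelsolin, had 892 and 905 CPM in CKO, against 1146 and 1148 CPM in WT (log2 fold change -0.35, adjusted p = 0.0261). In all these genes the 2 genotypes did not overlap. Procr, like Hpse, was called under every setting tried, whereas Pros1, Rxra, Mxd1, Bhlhe40, Glul and Gsn were not. No called gene lay on chromosomes 10 and 14, where 655 and 474 genes were tested, and chromosome 2 held the most, 14 of 1087 (1.29%).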
